A study of Homo sapiens with 6 samples.

Results

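Transcript levels of 7 aldo-keto reductase genes, AKR1A1, AKR1B1, AKR1B10, AKR1C1, AKR1C2, AKR1C3 and AKR7A2, were followed in 3 human lines of oral squamous cell carcinoma, HSC3, HSC4 and SAS, each grown in HPLM and in DMEM. The genes were taken by symbol from a table of transcripts in which each transcript was counted once and summed by gene symbol, and all 7 were found among 27852 symbols. HPLM is a medium composed after human plasma, DMEM is a standard culture medium, and both carried heat-inactivated fetal bovine serum and antibiotics. There was 1 poly(A) RNA library for each line and medium, 3 in HPLM and 3 in DMEM, so the lines stand in for replicates. P-values for the medium measure the spread of the difference over lines, and the media within 1 line were compared without a replicate. P-values between lines rest on 2 libraries per line, 1 in each medium, and not on replicates of a line.

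Library totals of estimated counts lay between 17716006 and 20171713. In the table the columns taken for DMEM name the line but not the medium, and end in characters with no stated meaning. All 6 epithelial markers fixed for the check (KRT5, KRT14, KRT17, TP63, CDH1 and EPCAM) were above 0 in each library, with summed levels of 1474 to 3663 CPM (counts scaled to library size) in HPLM and 1948 to 4551 CPM in DMEM. Markers of other cell types were low: 6 fibroblast markers summed to 1.67 to 6.30 CPM over the libraries, 5 leukocyte markers to 2.80 to 5.33 CPM and 3 endothelial markers to 0.307 to 2.49 CPM. Of these markers, 1 to 3 fibroblast, 1 to 3 leukocyte and 0 to 1 endothelial genes were at 0 in a library. In bulk RNA, fewer cells that express a gene and less of its RNA per cell cannot be told apart.

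Aldo-keto reductases are cytosolic enzymes that use NADPH to reduce aldehydes and ketones to alcohols. Their substrates include sugars, lipid aldehydes, retinal, steroids and prostaglandins, and several members also reduce carbonyl groups of drugs and carcinogens. The AKR1C genes and AKR1B10 are known in human cells as targets of NRF2 (gene NFE2L2), a transcription factor that KEAP1 marks for degradation until oxidants or electrophiles release it, and they are often high in squamous carcinomas with an active NRF2 pathway.

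The 3 AKR1C genes are neighbours on chromosome 10 and close copies of one another. In GENCODE 29 (GRCh38) AKR1C1 (ENSG00000187134) spans 4963253 to 4983283 on the plus strand, AKR1C2 (ENSG00000151632) 4987400 to 5018031 on the minus strand and AKR1C3 (ENSG00000196139) 5035354 to 5107686 on the plus strand. Their promoter windows, 250 bases before to 50 after a RefSeq start (GRCh38.p14, 5′ to 3′ along the gene), are shown because all 3 genes had much lower levels in HPLM in HSC3. Capitals mark ATTGGTTAACCA, a stretch of 12 bases found in all 4 AKR1C windows of the table (the 3 shown and a second one of AKR1C3), picked after the sequences were compared.

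AKR1C1, chr10:4963165-4963464, plus strand: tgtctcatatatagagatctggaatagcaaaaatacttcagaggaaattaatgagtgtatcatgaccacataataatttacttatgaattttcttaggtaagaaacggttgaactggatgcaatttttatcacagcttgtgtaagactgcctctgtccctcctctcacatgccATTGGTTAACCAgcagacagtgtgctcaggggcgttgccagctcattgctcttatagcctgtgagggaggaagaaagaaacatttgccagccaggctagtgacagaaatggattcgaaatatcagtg
AKR1C2, chr10:5003808-5004107, minus strand: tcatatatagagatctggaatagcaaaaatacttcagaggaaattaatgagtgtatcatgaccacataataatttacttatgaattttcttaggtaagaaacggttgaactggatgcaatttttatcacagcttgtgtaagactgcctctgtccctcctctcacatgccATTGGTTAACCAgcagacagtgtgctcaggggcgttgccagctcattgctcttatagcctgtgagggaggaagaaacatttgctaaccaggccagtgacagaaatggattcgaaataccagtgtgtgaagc
AKR1C3, chr10:5048531-5048830, plus strand: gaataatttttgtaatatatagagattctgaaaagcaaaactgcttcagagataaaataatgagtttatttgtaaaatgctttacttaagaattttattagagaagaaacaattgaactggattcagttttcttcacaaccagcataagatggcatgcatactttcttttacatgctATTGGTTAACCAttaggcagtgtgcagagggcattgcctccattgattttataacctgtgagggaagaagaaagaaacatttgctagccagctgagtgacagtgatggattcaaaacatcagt

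The AKR1C1 and AKR1C2 windows were 98.63% identical over 292 aligned bases, and the AKR1C3 window was 80.9% identical to that of AKR1C1 over 288 bases and 79.72% identical to that of AKR1C2 over 281 bases. The shared stretch stood in 5 of 35116 promoter windows of the same length (0.014%, either strand). These were the 3 windows above, a second window of AKR1C3 at chr10:5094164-5094463 and a window of PPFIA2. Within it, on the other strand, lies CCAAT, which 34.6% of all windows hold. The core of the antioxidant response element, TGACNNNGC on either strand, was in 13.3% of all windows, in none of the AKR1C, AKR1A1 and AKR1B1 windows and at 3 places in the AKR7A2 window. A match in such a window is a description of its letters and not a binding site. The most abundant AKR1C2 transcript in the table starts outside the window shown. The AKR1C3 window shown was taken by position and not by transcript use, and the second AKR1C3 window was not aligned.

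AKR1C1, AKR1C2 and AKR1C3 were high in HSC3 and low in HSC4 and SAS, and in HSC3 all 3 were far lower in HPLM than in DMEM. AKR1C1 encodes a hydroxysteroid dehydrogenase that inactivates progesterone. In HPLM it had 34.3 CPM in HSC3, 0.971 CPM in HSC4 and 0.424 CPM in SAS, against 136 CPM in HSC3, 1.72 CPM in HSC4 and 0.215 CPM in SAS in DMEM. Both HSC3 libraries stood far above the other 4, and the HPLM and DMEM libraries overlapped across lines.

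AKR1C2 encodes the reductase that inactivates dihydrotestosterone. In HPLM it had 11.5 CPM in HSC3, 0.378 CPM in HSC4 and 0.477 CPM in SAS, against 111 CPM in HSC3, 0.763 CPM in HSC4 and 0.0538 CPM in SAS in DMEM. The last value stands for an estimated count of 1, so the direction in SAS rests on 9 estimated counts in HPLM and 1 in DMEM. AKR1C2 was high in HSC3 alone, and there its HPLM level was 10.4% of its DMEM level.

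AKR1C3 encodes an enzyme that makes testosterone from androstenedione and prostaglandin F from prostaglandins H and D. In HPLM it had 20.7 CPM in HSC3, 2.48 CPM in HSC4 and 1.80 CPM in SAS, against 127 CPM in HSC3, 7.87 CPM in HSC4 and 1.13 CPM in SAS in DMEM. It was the most abundant AKR1C gene in all 4 libraries of HSC4 and SAS, and its libraries also overlapped between media.

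**Figure D1:**
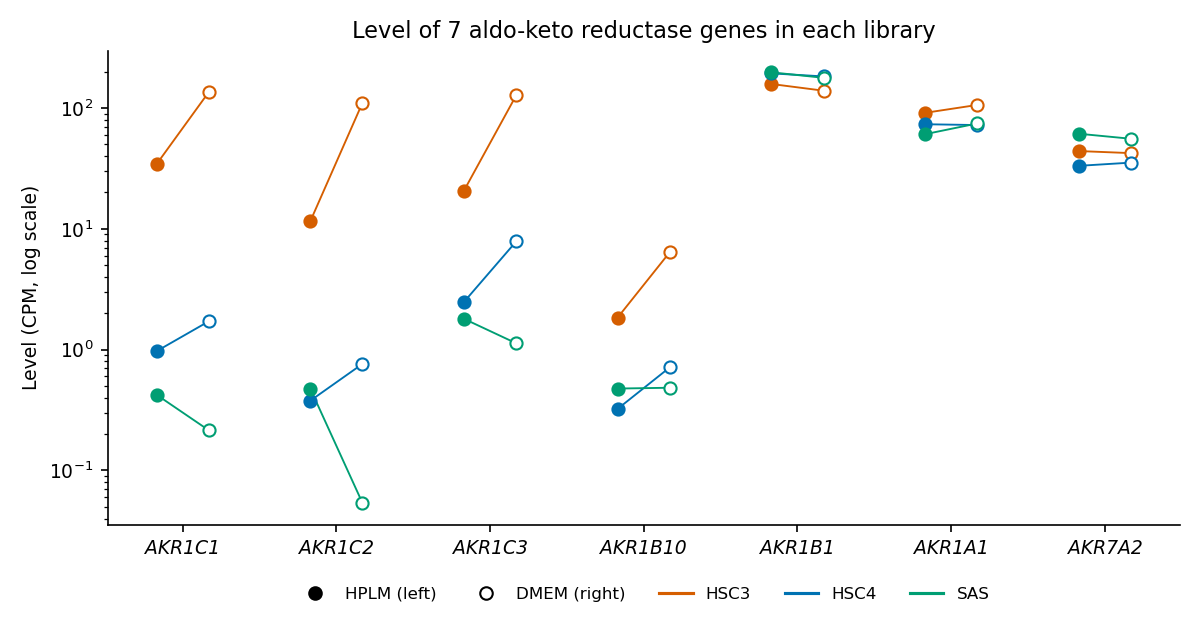
Level in CPM on a log axis of each of the 7 genes in each of the 6 libraries, HPLM as filled points on the left and DMEM as open points on the right, with a line joining the libraries of 1 cell line. In HSC3 the AKR1C genes lie at 11.5 to 34.3 CPM in HPLM and at 111 to 136 CPM in DMEM, while the HPLM and DMEM points of AKR1B1, of AKR1A1 and of AKR7A2 lie close to each other in each line.

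Reads are shared within this cluster, which bears on how the counts are split among its genes. Of the 31-base stretches in the main transcript of each gene, 68.49% for AKR1C1, 50.07% for AKR1C2 and 33.97% for AKR1C3 also occur in transcripts of another gene of the table. AKR1C1 shared 65.97% of its stretches with AKR1C2 and 26.75% with AKR1C3. The levels of single AKR1C genes are therefore uncertain, and their sum, which does not depend on the split among these 3, was tested as well. The sum came to 66.5 CPM in HSC3, 3.83 CPM in HSC4 and 2.70 CPM in SAS in HPLM, against 373 CPM in HSC3, 10.3 CPM in HSC4 and 1.40 CPM in SAS in DMEM. HPLM was below DMEM in HSC3 and HSC4 and above it in SAS, where the sum rests on 51 estimated counts in HPLM and 26 in DMEM.

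Several isoforms of each gene had lower values in HPLM in HSC3. Of 26 AKR1C transcripts listed, 20 were above 0 in either HSC3 library, 19 of them with a lower value in HPLM and 1 with a higher one, many at a few estimated counts. For the 7 with a mean of at least 50 estimated counts over both HSC3 libraries, the ratio of DMEM to HPLM lay between 3.77 and 16.03. A transcript could reach that mean through its DMEM value alone, which favours high ratios. This held for the AKR1C2 transcripts ENST00000421196, ENST00000380753 and ENST00000460124, with 35.2, 15.2 and 8.58 in HPLM and ratios of 11.69 to 16.03. Those with at least 50 estimated counts in HPLM had ratios of 3.77 to 8.41. The AKR1C1 transcript with most of that gene's counts, ENST00000442997, had 633 estimated counts in HPLM and 2383 in DMEM. For AKR1C2 the main transcript, ENST00000604507, had 156 estimated counts in HPLM and 1316 in DMEM, and for AKR1C3 ENST00000439082 had 287 in HPLM and 1646 in DMEM. Assignment among these transcripts is subject to the same sharing of reads.

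**Figure D2:**
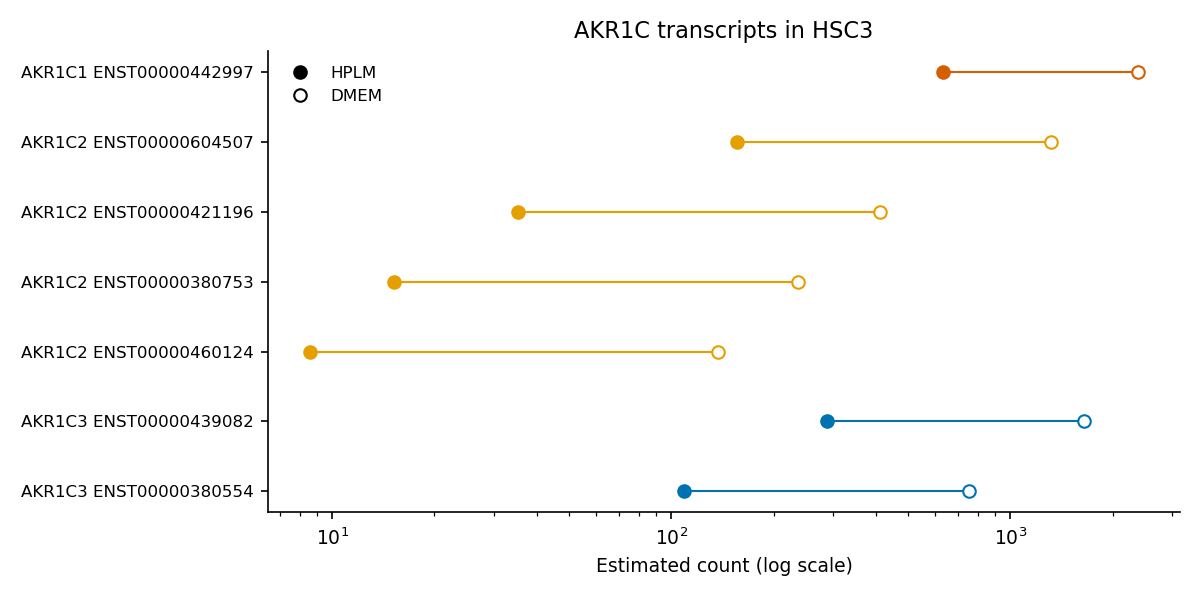
Estimated count on a log axis of the 7 AKR1C transcripts with a mean of at least 50 over both HSC3 libraries, HPLM as filled and DMEM as open points, coloured by gene. Each transcript lies lower in HPLM than in DMEM, and the AKR1C1 transcript ENST00000442997 has the smallest ratio of DMEM to HPLM, 3.77. A transcript could reach this mean through its DMEM value alone.

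The make-up of the AKR1C sum differed between media in HSC3. AKR1C1 made up 51.5% of it in HPLM and 36.3% in DMEM, AKR1C2 17.3% in HPLM and 29.6% in DMEM, and AKR1C3 31.1% in HPLM and 34.1% in DMEM. In HSC4 AKR1C3 made up 64.8% in HPLM and 76.0% in DMEM, and in SAS 66.7% in HPLM and 80.8% in DMEM. With 1 library per line and medium these shares have no replicate check, and they depend on the split of shared reads.

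AKR1B10, which reduces retinal and aliphatic aldehydes and lies beside AKR1B1 on chromosome 7 (134527592 to 134541408, plus strand, GENCODE 29), had the same order as the AKR1C genes in HSC3 at a much lower level. In HPLM it had 1.84 CPM in HSC3, 0.324 CPM in HSC4 and 0.477 CPM in SAS, against 6.43 CPM in HSC3, 0.715 CPM in HSC4 and 0.484 CPM in SAS in DMEM. HSC3 was again the highest line in both media, and in SAS the 2 libraries were nearly equal at 9 estimated counts each. Its main transcript shares 21.67% of its 31-base stretches with AKR1B15.

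The other 3 members were abundant in every library and close between media. AKR1B1, aldose reductase, the enzyme that turns glucose into sorbitol (chromosome 7, 134442350 to 134459284, minus strand), had in HPLM 158 CPM in HSC3, 194 CPM in HSC4 and 198 CPM in SAS, against 139 CPM in HSC3, 183 CPM in HSC4 and 178 CPM in SAS in DMEM. HPLM was the higher medium in all 3 lines, with log2 ratios between 0.08 in HSC4 and 0.18 in HSC3, while the media overlapped across lines. The means were 183 ± 21.7 CPM in HPLM and 167 ± 23.9 CPM in DMEM (SD, 3 lines each). Of all genes tested, 16.9% were higher in HPLM in all 3 lines.

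AKR1A1, the general aldehyde reductase that also reduces glucuronate (chromosome 1, 45550543 to 45570049, plus strand), had in HPLM 91.2 CPM in HSC3, 73.4 CPM in HSC4 and 60.7 CPM in SAS, against 106 CPM in HSC3, 72.3 CPM in HSC4 and 74.5 CPM in SAS in DMEM. The media overlapped, and HSC3 was the highest line in each. AKR7A2, which reduces succinic semialdehyde and aflatoxin dialdehyde (chromosome 1, 19303965 to 19312146, minus strand), had in HPLM 44.1 CPM in HSC3, 33.2 CPM in HSC4 and 61.3 CPM in SAS, against 42.3 CPM in HSC3, 35.3 CPM in HSC4 and 55.7 CPM in SAS in DMEM. SAS was the highest line and HSC4 the lowest in both media.

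Because the deposited values are corrected for transcript length, levels can be set side by side between genes. AKR1B1 had the highest level of the 7 in each library. AKR1A1 came next in HSC4 in both media, while in SAS in HPLM it lay at 60.7 CPM beside AKR7A2 at 61.3 CPM. In HSC3 in DMEM the AKR1C genes joined the top, with AKR1B1 at 139 CPM followed by AKR1C1 at 136 CPM, AKR1C3 at 127 CPM and AKR1C2 at 111 CPM, ahead of AKR1A1 at 106 CPM. In HSC3 in HPLM all 3 AKR1C genes ranked below AKR7A2. Neighbours in these orders within 1 library were not tested.

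The summed level of all 7 genes shows where the family differed. It was 362 CPM in HSC3, 304 CPM in HSC4 and 323 CPM in SAS in HPLM, against 668 CPM in HSC3, 301 CPM in HSC4 and 310 CPM in SAS in DMEM. The HSC3 library in DMEM stood apart from the other 5. Without the AKR1C genes, the remaining 4 summed to 295 CPM in HPLM and 294 CPM in DMEM in HSC3. The AKR1C genes made up 18.4% of the family's level in HPLM and 55.9% in DMEM in HSC3, 1.26% in HPLM and 3.43% in DMEM in HSC4, and 0.837% in HPLM and 0.451% in DMEM in SAS.

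**Figure D3:**
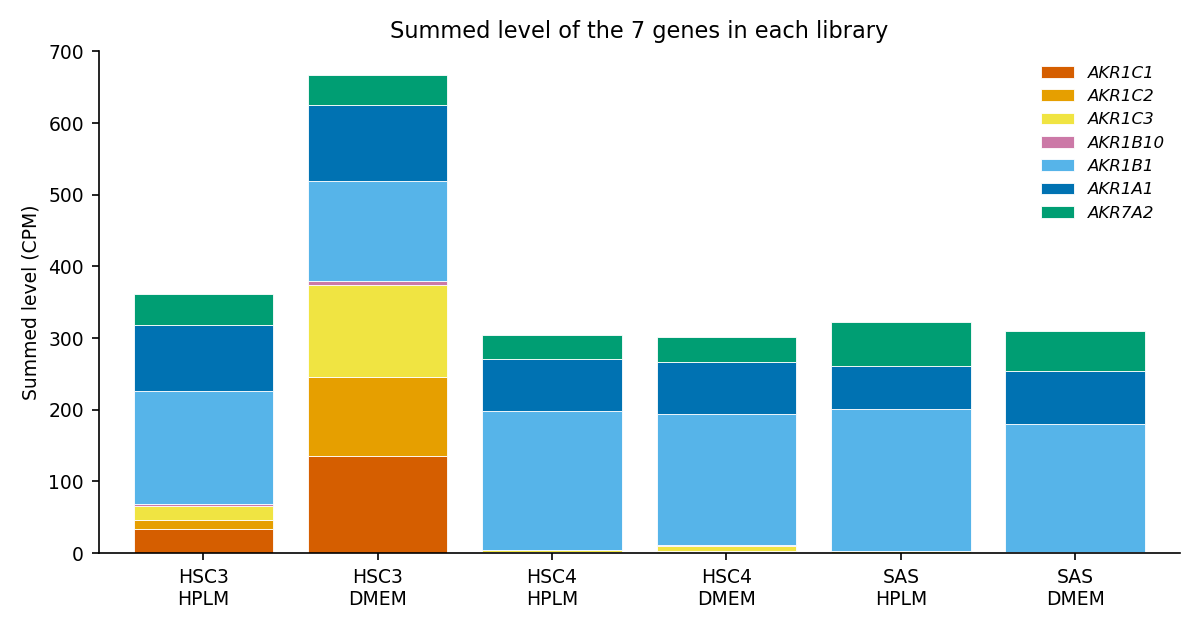
Summed level in CPM of the 7 genes in each library, HPLM left of DMEM within each line, with 1 colour per gene. The HSC3 library in DMEM reaches 668 CPM, of which the AKR1C genes are 55.9%, and the other 5 libraries lie between 301 and 362 CPM.

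The difference between media was tested over the 3 lines with the line as a block. None of the 7 members was called (0 of 7 at a Benjamini-Hochberg adjusted p under 0.05, edgeR quasi-likelihood), where 1 of 13236 genes was (0.00756% of all genes tested, 0 lower in HPLM). DESeq2 and limma-voom also called 0 of 7, where they called 0.96% and 0.068% of all genes. At an unadjusted p under 0.05 edgeR counted 3 of the 7 members, AKR1C1, AKR1C2 and AKR1C3, all lower in HPLM, where it counted 4.55% of all genes as lower. These 3 share reads and are not independent of one another. The median log2 fold change was -1.12 over the 7 members and 0.00 over all genes.

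For AKR1C1 the log2 fold change of HPLM over DMEM was -1.56 ± 0.37 (SE of the fit, edgeR adjusted p = 0.362), and AKR1C2 had -2.60 ± 0.72 (adjusted p = 0.390). The fit draws its spread partly from all genes, so these SEs are not those of the 3 line ratios. AKR1C3 had -1.76 ± 0.52 (edgeR adjusted p = 0.406). The AKR1C sum had -1.53 ± 0.55 with a 95% interval of -2.87 to -0.19 (edgeR adjusted p = 0.451). The 3 lines did not move alike, and these estimates lie between the HSC3 and SAS ratios. Their size depended on the tool. By DESeq2 AKR1C1 had -0.80 ± 0.76, AKR1C2 -0.74 ± 1.36, AKR1C3 -1.28 ± 0.85 and the sum -1.07 ± 0.87. By limma-voom AKR1C1 had -1.85 ± 0.24, AKR1C2 -3.05 ± 0.40, AKR1C3 -2.27 ± 0.35 and the sum -2.09 ± 0.36.

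The estimates rest on HSC3, and SAS draws them toward 0. Without HSC3 the AKR1C sum had -0.39 ± 0.58 (edgeR adjusted p = 0.918) and AKR1C1 had -0.12 and AKR1C3 -0.63, while AKR1C2 and AKR1B10 then fell under the filter on low counts. Without SAS the sum had -2.08 ± 0.27 (edgeR adjusted p = 0.211), and without HSC4 -1.68 ± 0.74 (adjusted p = 0.630).

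AKR1B10 had -1.12 ± 0.48 with an interval of -2.29 to 0.05 (edgeR adjusted p = 0.510). AKR1B1 had 0.14 ± 0.08, with an interval of -0.06 to 0.34 (adjusted p = 0.612, edgeR). AKR1A1 had -0.16 ± 0.10, with an interval of -0.41 to 0.08 (edgeR adjusted p = 0.627). AKR7A2 had 0.04 ± 0.10, with an interval of -0.20 to 0.27 (edgeR adjusted p = 0.932), and its sign turned without SAS and without a scaling factor. For these last 3 genes the intervals reach no lower than -0.41 and no higher than 0.34 on the log2 scale.

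Within lines, the AKR1C genes in HSC3 were among the genes with the lowest HPLM values relative to DMEM. Ratios within a line were taken between log2 CPM values computed with 2 added counts, which draws the ratios of low genes toward 0. Counted from the most lowered of 13236 genes, AKR1C2 held place 30 with a log2 ratio of -3.25, AKR1C3 place 73 with -2.62, AKR1C1 place 124 with -1.98 and AKR1B10 place 170 with -1.75. All 4 were past -1, as were 3.85% of all genes in HSC3. In HSC4 the ratios were -1.62 for AKR1C3 at place 129, -0.94 for AKR1B10, -0.85 for AKR1C2 and -0.76 for AKR1C1, so 1 of the 4 was past -1, with 2.65% of all genes. In SAS they were 0.73 for AKR1C1, 1.88 for AKR1C2, 0.63 for AKR1C3 and -0.02 for AKR1B10.

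**Figure D4:**
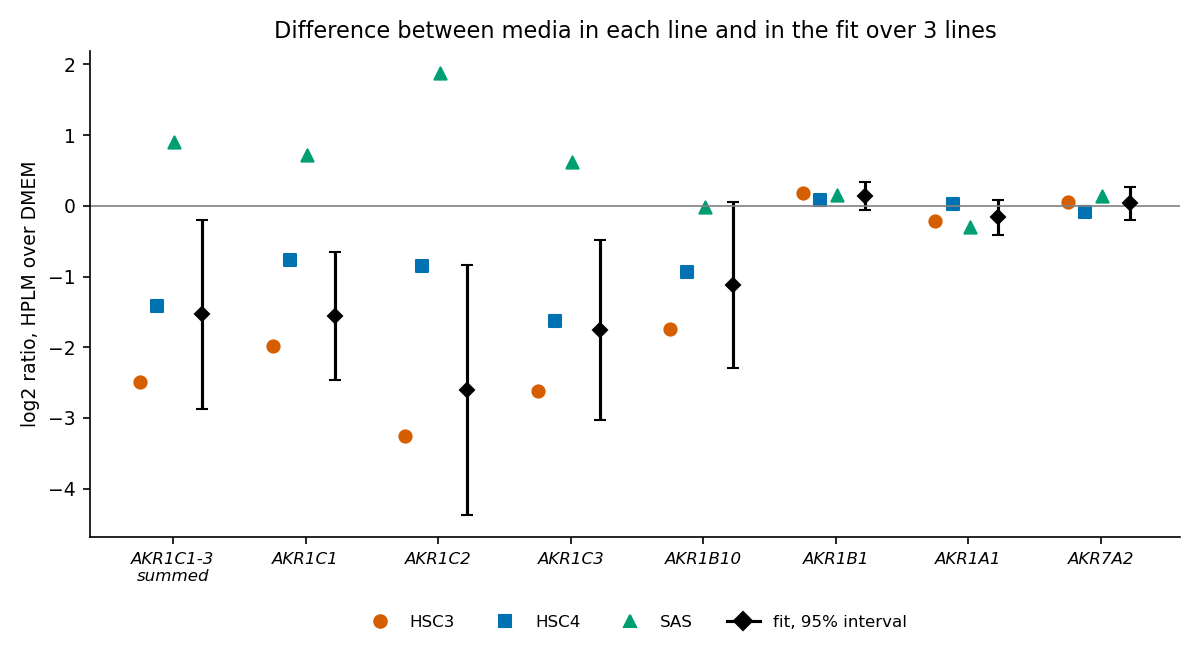
Log2 ratio of HPLM over DMEM for the AKR1C sum and each of the 7 genes, with 1 coloured point per cell line and, as black diamonds, the edgeR estimate over 3 lines with its 95% interval. The AKR1C points spread from -3.25 in HSC3 to 1.88 in SAS, while AKR1B1, AKR1A1 and AKR7A2 lie between -0.29 and 0.18 in every line.

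Whether 1 line differs from the other 2 was tested with an extra term for HPLM in that line, a fit added after the data had been seen that leaves 1 residual degree of freedom. For SAS the AKR1C sum differed by 3.02 ± 0.58 on the log2 scale (SE), and the edgeR adjusted p was 0.816. For HSC3 it differed by -1.91 ± 0.69, and the edgeR adjusted p was 0.928. In these fits edgeR called 0 of 13236 genes for any line, and at an unadjusted p under 0.05 it counted 5.18% of genes for HSC3 and 4.68% for SAS. A difference between the lines in the response of the AKR1C genes thus did not pass the correction over all genes.

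HSC3 differed from both other lines in most members, and HSC4 and SAS differed in few. The same fit was read for HSC3 against SAS, HSC3 against HSC4 and HSC4 against SAS. Each line there has 2 libraries, 1 in each medium. These p-values thus measure how far line differences vary between media, and not a spread over replicates of a line. Against SAS, all 7 members were called in HSC3, 5 higher and 2 lower, where 39.4% of all genes were called, 20.6% higher and 18.8% lower. AKR1C1 was higher by 7.87 ± 0.51 on the log2 scale, a fold of 234 (edgeR adjusted p = 0.000557), and the AKR1C sum by 6.31 ± 0.73, a fold of 79.5 (edgeR adjusted p = 0.00211).

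AKR1C2 was higher in HSC3 than in SAS by 7.46 ± 0.92 (adjusted p = 0.00245) and AKR1C3 by 5.24 ± 0.68 (adjusted p = 0.00285, edgeR). AKR1B10 was higher by 2.87 ± 0.58 (edgeR adjusted p = 0.0121), and AKR1A1 by 0.55 ± 0.12 (adjusted p = 0.0167). AKR1B1 and AKR7A2 were lower in HSC3, by -0.34 ± 0.10 (edgeR adjusted p = 0.0414) and -0.44 ± 0.12 (adjusted p = 0.0304). The AKR1C calls held whichever library was left out. Those of AKR1A1, AKR1B1 and AKR7A2 ended when any 1 of the 4 libraries of HSC3 and SAS was left out, with adjusted p-values of 0.0585 to 0.198. That of AKR1B10 ended without the DMEM library of HSC3 (adjusted p = 0.112) or of SAS (0.0880), and that of AKR1B1 also without either HSC4 library (0.0612 and 0.0625).

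Against HSC4, 6 of 7 members were called in HSC3, 5 higher and 1 lower, where 37.4% of all genes were called, 18.6% higher and 18.8% lower. AKR1C1 was higher in HSC3 by 5.85 ± 0.42 (edgeR adjusted p = 0.000788), AKR1C2 by 6.49 ± 0.82 (adjusted p = 0.00294) and AKR1C3 by 3.63 ± 0.57 (adjusted p = 0.00579). The AKR1C sum was 26.7-fold higher (edgeR adjusted p = 0.00354). AKR1B10 was higher by 2.87 ± 0.57 (adjusted p = 0.0120), AKR1A1 by 0.43 ± 0.12 (adjusted p = 0.0371), and AKR1B1 was lower by -0.34 ± 0.10 (edgeR adjusted p = 0.0414). AKR7A2 had 0.33 ± 0.12 (edgeR adjusted p = 0.0729).

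Without the DMEM library of HSC4 the calls of AKR1C2 (adjusted p = 0.0531) and AKR1C3 (0.0700) against HSC4 were lost, and those of AKR1C1 and the sum held whichever library was left out. The AKR1A1 and AKR1B1 calls ended when any 1 of the 6 libraries was left out, with adjusted p-values of 0.0506 to 0.230. The AKR1B10 call ended without the DMEM library of HSC3 (0.134) and without the HPLM (0.0634) or DMEM library (0.0897) of HSC4.

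HSC4 and SAS, the lines with little AKR1C, differed in 1 of 7 members, where 41.3% of all genes were called. AKR7A2 was lower in HSC4 by -0.77 ± 0.12 (edgeR adjusted p = 0.00495), and this call held whichever library was left out. The AKR1C sum had 1.58 ± 0.76 with an interval of -0.28 to 3.44 (edgeR adjusted p = 0.146). AKR1C2 had 0.97 ± 1.45 (edgeR adjusted p = 0.621), and without the DMEM library of SAS it had -1.88. AKR1C1 had 2.02 ± 0.72 (edgeR adjusted p = 0.0681). Without the HPLM library of SAS the sum had 3.14 (adjusted p = 0.0129) and AKR1C1 3.26 (0.0276), and without that of HSC3 they had 1.68 (0.0487) and 2.03 (0.0191). AKR1C1 was also past the threshold without the DMEM library of HSC3 (0.0240), and AKR1C3 without the HPLM library of HSC3 (0.0473) or SAS (0.0123). AKR1A1 had 0.12 ± 0.12, AKR1B1 0.01 ± 0.10 and AKR1B10 -0.0049 ± 0.63, with adjusted p-values of 0.481, 0.974 and 0.996 by edgeR.

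Other genes of the superfamily averaged at most 13.4 CPM over the libraries. Of 12 further members on the list, 11 were in the table and 5 passed the filter on low counts, AKR1B15, AKR1E2, KCNAB1, KCNAB2 and KCNAB3, the last 3 encoding beta subunits of potassium channels with an aldo-keto reductase fold. For the medium edgeR called 0 of these 5 and counted 0 at an unadjusted p under 0.05, and DESeq2 and limma-voom called 0. AKR1E2 had 5.28 CPM in HSC3 and 3.18 CPM in HSC4 in HPLM, against 8.31 CPM in HSC3 and 4.01 CPM in HSC4 in DMEM, and it was at 0 in both SAS libraries. KCNAB2 had 15.8 CPM in HSC3, 11.2 CPM in HSC4 and 8.26 CPM in SAS in HPLM, against 24.4 CPM in HSC3, 15.6 CPM in HSC4 and 5.06 CPM in SAS in DMEM. Like the AKR1C sum, KCNAB2 was lower in HPLM in HSC3 and HSC4 and higher in SAS, with an edgeR estimate of -0.18 ± 0.27 (adjusted p = 0.859). AKR1B15, KCNAB1 and KCNAB3 averaged 3.17, 1.41 and 1.20 CPM over the libraries and had -0.01 ± 0.28, 0.06 ± 0.42 and 0.01 ± 0.42.

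The NRF2 pathway is known to drive several of these reductases, so its genes were set beside them. Of 26 genes on the list, all tested, edgeR called 0 for the medium and counted 1 higher and 8 lower in HPLM at an unadjusted p under 0.05, where 5.57% of all genes were higher and 4.55% lower. DESeq2 called 0 higher and 5 lower, where it called 0.612% of all genes higher and 0.348% lower, and limma-voom called 0. The median log2 ratio of HPLM to DMEM was -0.64 in HSC3, -0.07 in HSC4 and -0.12 in SAS, with 23, 16 and 17 of the 26 below 0, where the median of all genes was 0.00 in each line. The median was lowest in HSC3, and those of HSC4 and SAS lay close to each other. A link between the list and the AKR1C genes was not tested.

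NFE2L2 itself had 67.4 CPM in HSC3, 49.2 CPM in HSC4 and 46.3 CPM in SAS in HPLM, against 71.5 CPM in HSC3, 61.0 CPM in HSC4 and 61.1 CPM in SAS in DMEM, with an edgeR estimate of -0.26 ± 0.10 (adjusted p = 0.477). KEAP1 had -0.02 ± 0.12 (edgeR adjusted p = 0.976). NQO1, a quinone reductase gene read as a marker of NRF2 activity, had 416 CPM in HSC3, 205 CPM in HSC4 and 260 CPM in SAS in HPLM, against 925 CPM in HSC3, 397 CPM in HSC4 and 350 CPM in SAS in DMEM. NQO1 was lower in HPLM in all 3 lines, as were 17% of all genes, and had -0.85 ± 0.15 (edgeR adjusted p = 0.315).

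Beside NQO1, a small p-value on the list belonged to UGT1A6, which conjugates glucuronic acid to phenols and has exons in common with its UGT1A neighbours. UGT1A6 had 0.973 CPM in HSC3, 8.26 CPM in HSC4 and 4.08 CPM in SAS in HPLM, against 6.01 CPM in HSC3, 24.2 CPM in HSC4 and 12.3 CPM in SAS in DMEM, with -1.82 ± 0.23 (edgeR adjusted p = 0.197). Unlike the AKR1C genes, UGT1A6 was lower in HPLM in SAS too, with a log2 ratio of -1.57. SLC7A11, the cystine transporter, and GCLC, the catalytic subunit of glutathione synthesis, were picked after their values were seen: the log2 ratio of SLC7A11 was -3.16 in HSC3, -1.40 in HSC4 and -0.35 in SAS. For GCLC it was -2.11 in HSC3, against 0.20 in HSC4 and -0.10 in SAS. Over the lines edgeR gave -1.69 ± 0.54 for SLC7A11 (adjusted p = 0.4215) and -0.72 ± 0.46 for GCLC (adjusted p = 0.645). Other genes of the list, also picked after their values were seen, moved less over the lines or the other way. By edgeR TXNRD1 had -0.09 ± 0.17, SRXN1 -0.16 ± 0.16, GCLM -0.16 ± 0.10 and HMOX1 0.04 ± 0.32 over the lines. In HSC3 alone their log2 ratios were -0.60, -0.62, -0.33 and -0.42 in that order, all lower in HPLM. MAFF, the gene counted as higher in HPLM, had 0.60 ± 0.13 (edgeR adjusted p = 0.362).

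**Figure D5:**
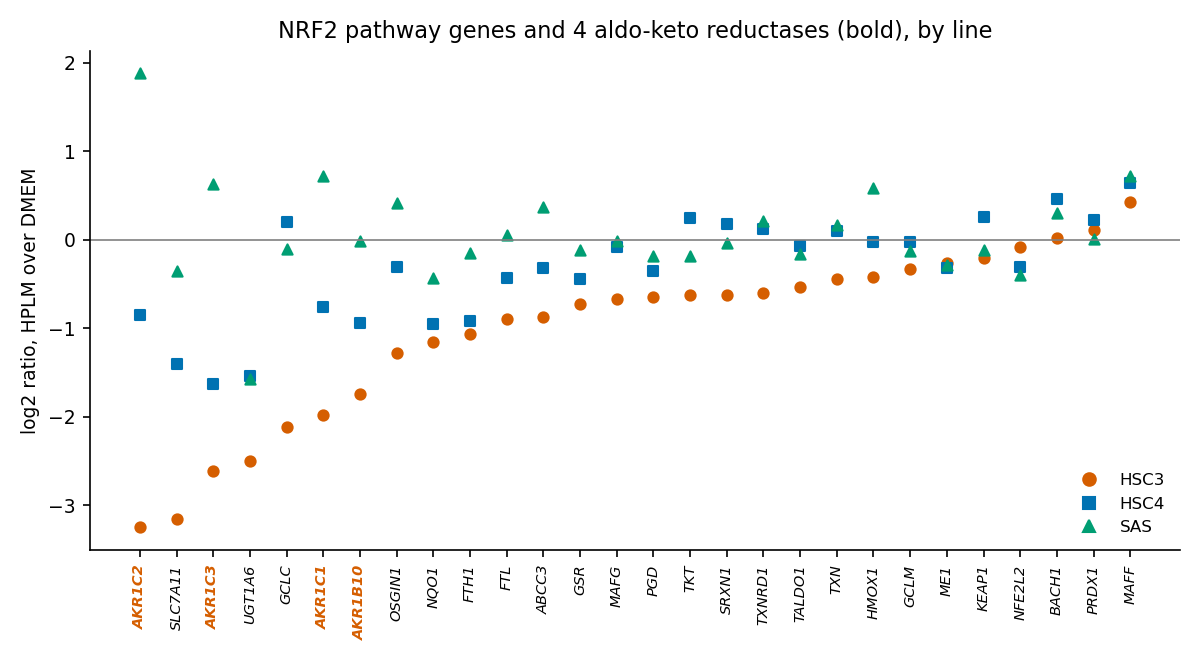
Log2 ratio of HPLM over DMEM in each line for 24 of the 25 NRF2 pathway genes with a mean of at least 1 CPM (1 is not shown) and for 4 aldo-keto reductases (bold), ordered by the HSC3 ratio. AKR1C2 and SLC7A11 have the lowest HSC3 ratios, at -3.25 and -3.16, and the SAS points of the 3 AKR1C genes lie above 0.

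Between lines the NRF2 list was mixed. In HSC3 against SAS edgeR called 8 of 26 genes higher and 2 lower, and in HSC3 against HSC4 10 higher and 3 lower, where all genes gave 20.6% higher and 18.8% lower in the first and 18.6% higher and 18.8% lower in the second. In HSC4 against SAS it called 7 higher and 6 lower, where 21.3% of all genes were higher and 20% lower.

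Other lists of related enzymes held no gene called by edgeR for the medium, and their counts at an unadjusted p stand against the 5.57% higher and 4.55% lower of all genes. Among 14 tested genes of other carbonyl-reducing and aldehyde-oxidising enzymes, 0 higher and 1 lower had an unadjusted p under 0.05, and DESeq2 and limma-voom called 0. The 2 with the smallest p encode aldehyde dehydrogenases, ALDH1A3 with -0.36 ± 0.12 (edgeR adjusted p = 0.428) and ALDH3A2 with -0.26 ± 0.11 (adjusted p = 0.502). The median log2 fold change of the list was 0.04.

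Among 9 polyol, osmotic and methylglyoxal genes, the setting of AKR1B1, an unadjusted p under 0.05 was found for 1 higher and 1 lower gene, and DESeq2 and limma-voom called 0. GLO1, which detoxifies methylglyoxal, had 0.44 ± 0.11 (edgeR adjusted p = 0.381) and NFAT5, the transcription factor that induces aldose reductase under osmotic stress, -0.41 ± 0.15 (adjusted p = 0.452). SORD, which turns the sorbitol made by AKR1B1 into fructose and was picked after its values were seen, had -0.08 ± 0.10 (edgeR adjusted p = 0.833).

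Among 20 tested steroid and prostaglandin enzymes, the setting of the AKR1C genes, an unadjusted p under 0.05 was found for 2 higher and 0 lower genes, DESeq2 called 1 higher (0.612% of all genes) and limma-voom 0. HSD11B1, which regenerates cortisol, had 0.564 CPM in HSC3, 0.432 CPM in HSC4 and 29.7 CPM in SAS in HPLM, against 0.0523 CPM in HSC3, 0.0477 CPM in HSC4 and 10.5 CPM in SAS in DMEM. It had 1.78 ± 0.34 (edgeR adjusted p = 0.331), was highest in SAS, the line with the least AKR1C, and its HSC3 and HSC4 values in DMEM stand for 1 estimated count each. HSD17B8, a dehydrogenase of estradiol and testosterone, had 0.60 ± 0.13 (adjusted p = 0.362, edgeR). Among 10 tested retinoid genes, the setting of AKR1B10, an unadjusted p under 0.05 was found for 1 higher and 1 lower gene, DESeq2 called 1 higher and limma-voom 0. CRABP2, a carrier of retinoic acid, had 0.69 ± 0.11 (edgeR adjusted p = 0.260) and RARG, a retinoic acid receptor, -0.44 ± 0.15 (adjusted p = 0.434).

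Genes with patterns most like those of the variable members were taken by the smallest root mean square difference between centred log2 CPM profiles over the 6 libraries, among 9807 tested genes other than the 7 members with a mean of at least 5 CPM. For AKR1B10 these were GPX2, a glutathione peroxidase gene, with a difference of 0.36, SEL1L3 with 0.41 and SLC7A8, an amino acid transporter gene, with 0.42. GPX2 had 30.1 CPM in HSC3, 4.42 CPM in HSC4 and 3.92 CPM in SAS in HPLM, against 66.9 CPM in HSC3, 7.34 CPM in HSC4 and 4.79 CPM in SAS in DMEM. GPX2 was also nearest to AKR1C3, with a difference of 0.91, followed by SLC22A18 with 0.96 and CARD16 with 0.98.

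Outside the members, the genes nearest to AKR1C1 and AKR1C2 were farther off. Nearest to AKR1C1 were HOOK1 with 1.09, PHYHD1 with 1.24 and HEPHL1 with 1.26, and nearest to AKR1C2 were PHYHD1 with 1.18, NMRAL2P with 1.37 and HOOK1 with 1.38. For the AKR1C sum they were HOOK1 with 1.01, NMRAL2P with 1.04 and CARD16 with 1.14. In HSC3 HEPHL1 was higher in HPLM, at 55.2 CPM against 18.6 CPM in DMEM, opposite to AKR1C1. There HOOK1 had 14.2 CPM in HPLM against 21.9 CPM in DMEM, PHYHD1 14.8 against 17.5 CPM and CARD16 23.8 against 26.8 CPM. A near profile therefore need not share the difference between media. NMRAL2P, a pseudogene, had 12.6 CPM in HSC3, 0.216 CPM in HSC4 and 0.371 CPM in SAS in HPLM, against 50.9 CPM in HSC3, 1.77 CPM in HSC4 and 1.18 CPM in SAS in DMEM. It was lower in HPLM in all 3 lines and highest in HSC3. Both libraries of a line share that line's level, so these likenesses are over 3 lines and not over 6 independent samples.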

How the data were processed

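Poly(A) RNA of 3 cell lines in 2 media gave 6 strand-specific libraries. The submitters' processing notes name FastQC, kallisto and hg38. Tool versions, the annotation and the strand setting were not given in the sources used here, so overlapping genes on opposite strands may share counts. The authors deposited expected counts per transcript as scaled TPM: abundances corrected for transcript length and scaled to the library, not read numbers, so no counting interval is given. Of 161149 rows, 1312 repeated a transcript and were dropped, leaving 159837, 6878 transcripts without a symbol (0.362% to 0.479% of a library) were left out, the rest were summed by symbol and rounded. Unused columns of per-sample values: 0. Through transcript identifiers, 95.3% of transcripts with a symbol were found in GENCODE 29.

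Genes were kept by filterByExpr by medium (minimum count 10, minimum total 15), which left 13236 genes and all 7 members, scaled by TMM and fitted with line and medium in R 4.3.3 and edgeR 4.0.16 (quasi-likelihood, 2 residual degrees of freedom, 4.001 prior degrees of freedom). The call was an adjusted p under 0.05 over all genes (Benjamini-Hochberg). A second fit replaced the 3 AKR1C genes by their sum. Alternatives used DESeq2 1.42.0, limma 3.58.1 (voom), other scaling, no filter, repeated rows as listed, no block and each library left out. The fit was also run on simulated counts. These held no response to the medium that differed between lines, so that run does not check the fit for such genes. The same line gives the pair of libraries, and deviations from the medium mean correlated at 0.779, 0.792 and 0.805 within HSC3, HSC4 and SAS, at most -0.335 otherwise. Deviations from a mean of 3 libraries cancel, so positive values within lines force negative ones, on average, between lines.

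The members and gene lists were chosen with earlier results of these data known. Named genes were the members, superfamily genes with a mean of at least 1 CPM, NFE2L2, KEAP1, NQO1, the 2 genes per list with the smallest p for the medium at a mean of at least 1 CPM, and the 3 nearest patterns, and 1 gene that the rule took is not reported here by name. SLC7A11, GCLC, SORD, TXNRD1, SRXN1, GCLM, HMOX1 and MAFF were added after their values were seen. Promoter windows came from a RefSeq table (GRCh38.p14), which matched 6 of the 7 symbols. Shared sequence was counted over 31-base stretches, the default length of kallisto.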

Additional observations from a re-analysis of the deposited data

Results flagged for a closer look

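In 5 of the 7 genes 1 line moved the opposite way between media from the other 2 lines, beside the AKR1C sum. This pattern is common: 65.2% of all genes tested show it. In SAS, AKR1C1, AKR1C2 and AKR1C3 had log2 ratios of HPLM to DMEM of 0.73, 1.88 and 0.63, where HSC3 and HSC4 had -1.98 and -0.76 for AKR1C1, -3.25 and -0.85 for AKR1C2, and -2.62 and -1.62 for AKR1C3. The AKR1C sum had 0.90 in SAS, against -2.49 in HSC3 and -1.41 in HSC4. By edgeR the SAS response differed from the other lines by 2.70 ± 0.99 for AKR1C1 (adjusted p = 1), 6.0 ± 1.47 for AKR1C2 (adjusted p = 0.880) and 2.95 ± 0.58 for AKR1C3 (adjusted p = 0.843). In SAS these genes lie at 1 to 34 estimated counts.

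AKR1A1 had a log2 ratio of 0.0224 in HSC4, against -0.22 in HSC3 and -0.29 in SAS, and the HSC4 response differed by 0.28 ± 0.19 (edgeR adjusted p = 0.968). AKR7A2 had -0.0882 in HSC4, against 0.06 in HSC3 and 0.14 in SAS, and its HSC4 response differed by -0.19 ± 0.20 (edgeR adjusted p = 0.975).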

How the results depend on the processing

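For the medium, edgeR called 1 gene, against 0 with upper-quartile scaling, 0 without the low-count filter, 127 by DESeq2, 9 by limma-voom and 0 to 4 with 1 line left out. Without the line as replicate block it called 0 and the AKR1C sum had -2.40 (adjusted p = 1), against -1.53 with the block. That sum kept its sign and stayed above the threshold under every alternative run, at -0.39 to -2.08 with 1 line left out. Line counts left with 1 library out were 2848 to 5000 for HSC3 against SAS, 2787 to 5554 for HSC4 against SAS and 2445 to 4844 for HSC3 against HSC4. Without scaling factors the median of all genes shifted to 0.16 for HSC4 against SAS and -0.13 for HSC3 against HSC4, and calls split 3454 higher and 1832 lower (2821 and 2641 with TMM) and 1753 and 3097 (2462 and 2490). There AKR1A1 in HSC3 against HSC4 lost its call (adjusted p = 0.125), AKR1B1 in HSC3 against SAS did (0.0595) and AKR1C1 in HSC4 against SAS gained one (0.0491). Without the block AKR1A1 in HSC3 against HSC4 (adjusted p = 0.0532) and AKR1B1 against HSC4 (0.0770) and SAS (0.0768) also lost theirs, as they did without the filter (0.0524, 0.0708 and 0.0659), and no other member's call changed in these 2 settings. Signs turned for AKR1B1 in HSC4 against SAS (-0.0003 with upper-quartile scaling, -0.0052 without the filter, -0.0153 to 0.0522 with 1 library out), AKR7A2 for the medium (-0.0126 without scaling factors, -0.0174 to 0.0903 with 1 line out, the lowest without SAS), AKR1B10 in HSC4 against SAS (0.14 without factors, 0.12 by limma-voom, 0.13 without the block, -0.80 to 0.71 with 1 library out), AKR1A1 there (-0.019 to 0.28 with 1 library out), and AKR1C2 there, with an estimate of 0.97 (-1.88 to 4.13). The cause was not tested. Depth limits the AKR1C genes and AKR1B10 in SAS and HSC4, at 1 to 165 estimated counts.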
